A study of Homo sapiens with 6 samples.

Results

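Mitochondrial ribosomal proteins build the ribosome that sits in the mitochondrial matrix and translates the few messenger RNAs of the mitochondrial genome. The members studied here were the genes whose platform symbol is MRPL (large subunit) or MRPS (small subunit) followed by a digit, without pseudogene or antisense symbols. In all, 73 of the 14779 genes with a named array row met this rule, 48 of the large and 25 of the small subunit. Where a gene had several rows, the one with the highest mean stood for it. MRPL12, MRPS6, MRPS18C, MRPS24 and MRPS36 were not analysed here.

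RNA came from BE(2)-C, a human neuroblastoma line grown in medium with serum. Of 6 samples, 3 (a, b and c) had been treated with 10 µM NCT-503, an inhibitor of the serine synthesis enzyme PHGDH, for 2 days, and 3 (a, b and c) with its vehicle DMSO for 2 days. Each sample was hybridised to 1 array. The labels call the samples independent but do not say that they came from separate cultures, so the p-values cover only the spread among the samples, which may be technical. Values are the deposited log2 values, changes are NCT-503 minus DMSO on that log2 scale with limma's standard error (SE), and a gene was called at a Benjamini-Hochberg adjusted p under 0.05 over all 14779 genes. In bulk RNA, fewer cells carrying a transcript and less transcript per cell cannot be told apart.

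Over all rows, the median of an array was 4.32 or 4.33 in NCT-503 and 4.30 or 4.31 in DMSO, and the 75th percentiles between 6.03 and 6.08 on the NCT-503 arrays and between 6.16 and 6.19 on the DMSO arrays. No array was left out. Of the noradrenergic neuroblastoma markers, 9 of 11 had a row, with means between 5.88 and 10.41 in NCT-503 and between 6.05 and 10.15 in DMSO. Of these, PHOX2A (0.75), GATA3 and DBH (both 0.37) were called higher and CHGA (-1.23), CHGB (-1.13), HAND2 (-0.30) and ISL1 (-0.29) lower. Fibroblast and Schwann markers (5 of 12 with a row) had means between 3.67 and 6.98 in NCT-503 and between 3.73 and 7.22 in DMSO, LUM the highest in both, and DCN was called lower (-0.47). Of blood and endothelial markers 3 of 10 had a row. CD68, which is also a lysosomal protein, had means of 8.47 in NCT-503 and 6.22 in DMSO. CD68 was called higher (2.25, limma adjusted p = 1.53e-05). The others, CSF1R and VWF, had means of 4.78 and 3.69 in NCT-503 and of 4.66 and 3.68 in DMSO, and neither was called. The part of other cell types in the results below was not tested.

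Every mitochondrial ribosomal protein is encoded in the nucleus, made in the cytosol and imported, whereas the ribosomal RNAs it binds come from mitochondrial DNA. The proteins that this ribosome makes are all core subunits of the respiratory chain and ATP synthase. Some of its proteins descend from bacterial ribosomal proteins, and others were added in mitochondria and have no bacterial counterpart. Inherited defects of several members impair oxidative phosphorylation.

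The promoters of the members that moved most, and of members rich in one motif, are printed here to show sequence that the selection rule did not use. RefSeq (GRCh38.p14) gave a window for 65 of the 73 members, running from 250 bases before the gene's start to 50 bases after it. Each line shows the 250 bases before the start, 5′ to 3′ on the gene's own strand, and capitals mark matches on either strand to the motifs named below. MRPS35 and MRPS5 are the largest rises with a window, MRPL50 and MRPS25 the largest falls, and MRPS22 (called higher) and MRPS34 (not called) carry repeated matches to the ETS motif CCGGAAG.
MRPS35, chr12:27710582-27710831, plus strand: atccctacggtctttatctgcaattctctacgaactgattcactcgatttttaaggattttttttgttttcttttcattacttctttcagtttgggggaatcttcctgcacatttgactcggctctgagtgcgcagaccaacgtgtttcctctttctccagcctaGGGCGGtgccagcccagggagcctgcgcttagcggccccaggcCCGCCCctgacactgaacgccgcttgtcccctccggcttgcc
MRPS5, chr2:95121809-95122058, minus strand: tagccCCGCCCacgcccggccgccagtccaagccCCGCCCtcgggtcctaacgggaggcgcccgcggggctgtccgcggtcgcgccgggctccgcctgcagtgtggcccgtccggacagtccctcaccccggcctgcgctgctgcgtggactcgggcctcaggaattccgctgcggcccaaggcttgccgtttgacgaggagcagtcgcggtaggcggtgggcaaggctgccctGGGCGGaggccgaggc
MRPL50, chr9:101398619-101398868, minus strand: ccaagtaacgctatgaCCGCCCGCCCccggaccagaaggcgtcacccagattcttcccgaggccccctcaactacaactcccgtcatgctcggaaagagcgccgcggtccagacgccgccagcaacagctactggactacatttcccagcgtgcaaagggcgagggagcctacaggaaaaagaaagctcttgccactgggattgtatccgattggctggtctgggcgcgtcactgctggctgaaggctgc
MRPS25, chr3:15065316-15065565, minus strand: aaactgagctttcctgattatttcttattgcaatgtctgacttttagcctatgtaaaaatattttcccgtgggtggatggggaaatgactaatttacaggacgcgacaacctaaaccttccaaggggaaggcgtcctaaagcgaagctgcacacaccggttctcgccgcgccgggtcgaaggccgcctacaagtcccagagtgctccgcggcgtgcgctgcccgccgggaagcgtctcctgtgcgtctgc
MRPS22, chr3:139343744-139343993, plus strand: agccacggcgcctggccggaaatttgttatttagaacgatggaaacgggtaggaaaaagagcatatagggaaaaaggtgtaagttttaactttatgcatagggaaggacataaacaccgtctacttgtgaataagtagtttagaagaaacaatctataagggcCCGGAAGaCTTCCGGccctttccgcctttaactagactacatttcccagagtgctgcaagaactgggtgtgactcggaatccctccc
MRPS34, chr16:1773135-1773384, minus strand: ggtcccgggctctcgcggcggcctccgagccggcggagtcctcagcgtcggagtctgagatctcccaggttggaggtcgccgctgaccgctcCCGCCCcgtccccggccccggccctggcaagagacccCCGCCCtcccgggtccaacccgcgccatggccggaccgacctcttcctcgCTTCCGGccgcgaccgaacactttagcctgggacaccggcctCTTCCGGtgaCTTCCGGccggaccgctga

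The MRPS35 window held GC boxes (GGGCGG) starting 85 and 42 bases before the start, and the MRPS5 window held them at 245, 216 and 16 bases. In MRPL50 a pair of overlapping GC boxes began 234 and 230 bases before the start. The MRPS25 stretch had no match to any of the motifs searched. In the printed stretches MRPS22 carried ETS matches at 87 and 79 bases on opposite strands, 1 base apart. MRPS34 carried them at 71, 29 and 19 bases. Matches past the start lie outside these stretches, among them another ETS match of MRPS22 that began 5 bases after the start. A match is a run of letters, not a site shown to be bound.

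After 2 days with NCT-503, 28 of the 73 members were called higher and 6 lower. These were 38.4% and 8.22% of the members, against 16.4% called higher and 17.1% called lower among all genes tested. Among the 8148 genes whose mean value lay within the members' own range, 22.1% were called higher and 26.1% lower. The median change of the members was 0.15, and that of all genes tested was 0.06. By at least 1.5-fold, 9 members were higher and 3 lower, against a background of 4.96% and 8.86% of genes. The rises reached 1.79-fold, for MRPS35, and the deepest fall was that of MRPL50, by 1.47 on the log2 scale.

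In all 34 called members the 3 NCT-503 arrays lay wholly above or wholly below the 3 DMSO arrays. Such separation occurred upward in 37 members and downward in 12, against 25.4% and 22.4% of all genes tested. The remaining 24 members had overlapping groups. Changes of the 39 members without a call ran from -0.25 to 0.35.

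**Figure D1:**
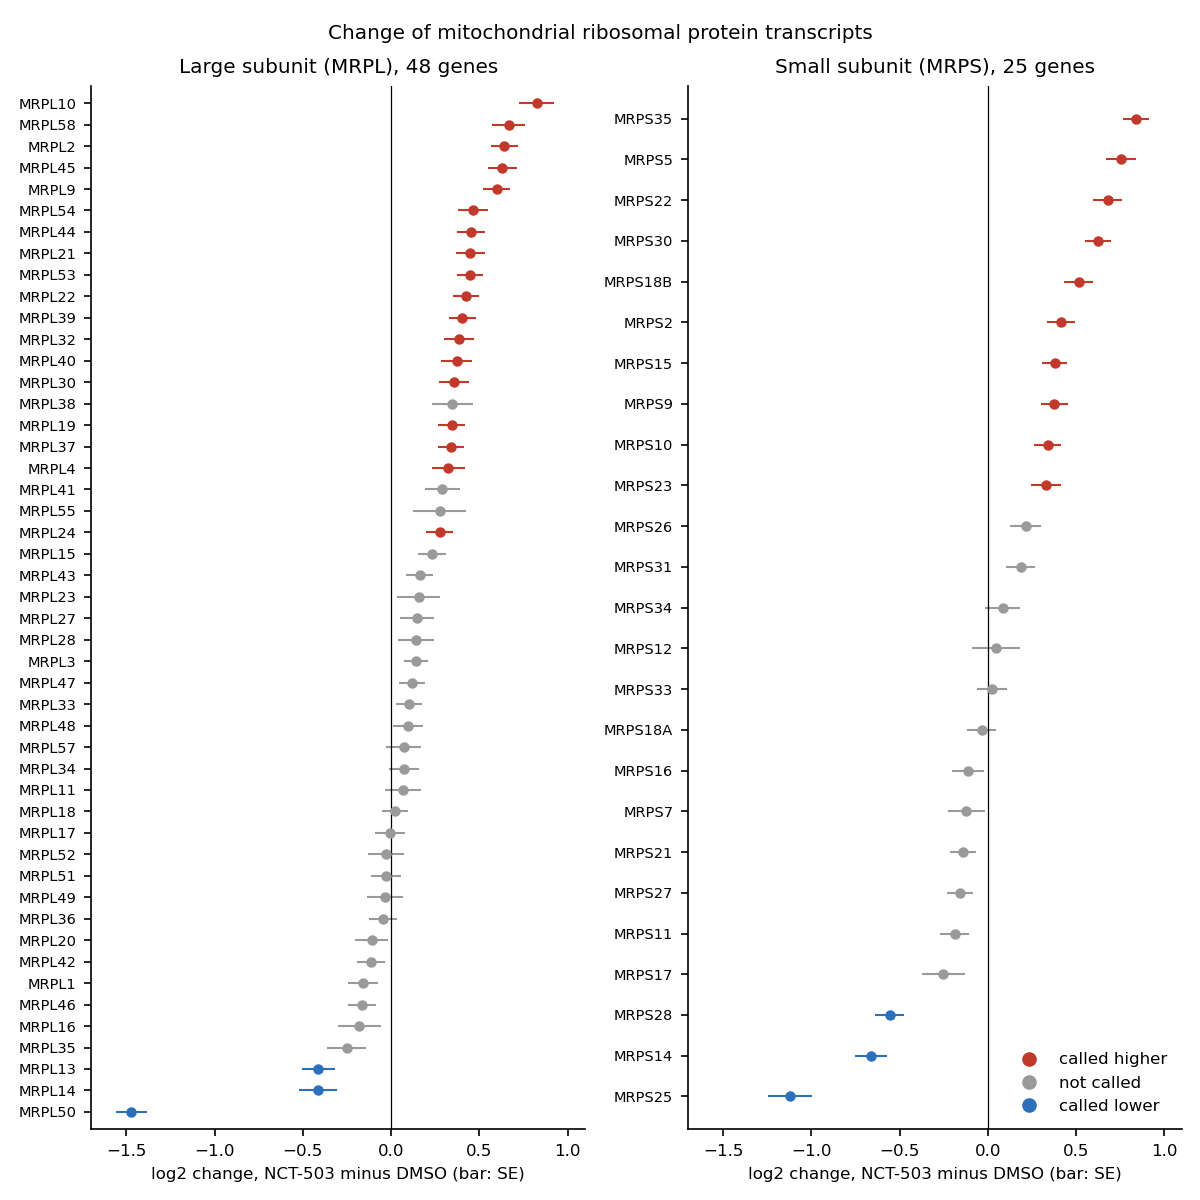
Log2 change (NCT-503 minus DMSO, 3 arrays per group) of each large-subunit gene (left) and small-subunit gene (right), with bars of 1 SE and colours for the call at an adjusted p under 0.05. In both subunits most members sat between 0 and 0.84, with MRPL50 at -1.47 and MRPS25 at -1.12 standing farthest to the left.

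The large and small subunits were compared by counts and medians. Of 48 large-subunit members, 18 rose (37.5%) and 3 fell (6.25%), with a median change of 0.15. Of 25 small-subunit members, 10 rose (40%) and 3 fell (12%), with a median change of 0.08. The small-subunit median depended on single arrays: it was 0.018 without NCT-503 a and 0.038 without DMSO a, below the all-gene medians of 0.059 and 0.058 in those fits, and 0.143 without NCT-503 c and 0.137 without DMSO b. The large-subunit median stayed between 0.14 and 0.207 when any 1 array was left out. The ranges of the changes overlapped almost fully, from -1.47 to 0.82 in the large subunit and from -1.12 to 0.84 in the small. Rises and falls therefore occurred in both subunits.

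Over the large subunit the median level was 6.98, 6.91 and 6.86 on NCT-503 arrays a, b and c, against 6.82, 6.91 and 6.83 on the DMSO arrays. Over the small subunit it was 7.49, 7.57 and 7.53 on the NCT-503 arrays, against 7.57, 7.80 and 7.54 on the DMSO arrays. The groups overlapped in both subunits.

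In the assembled human ribosome the proteins of MRPS30 and MRPS18A lie in the large subunit despite their names. Counted that way, 19 of 50 large-subunit members rose and 3 fell, and 9 of 23 small-subunit members rose and 3 fell. MRPS30 rose and MRPS18A was not called, so the regrouping moved 1 rise.

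**Figure D2:**
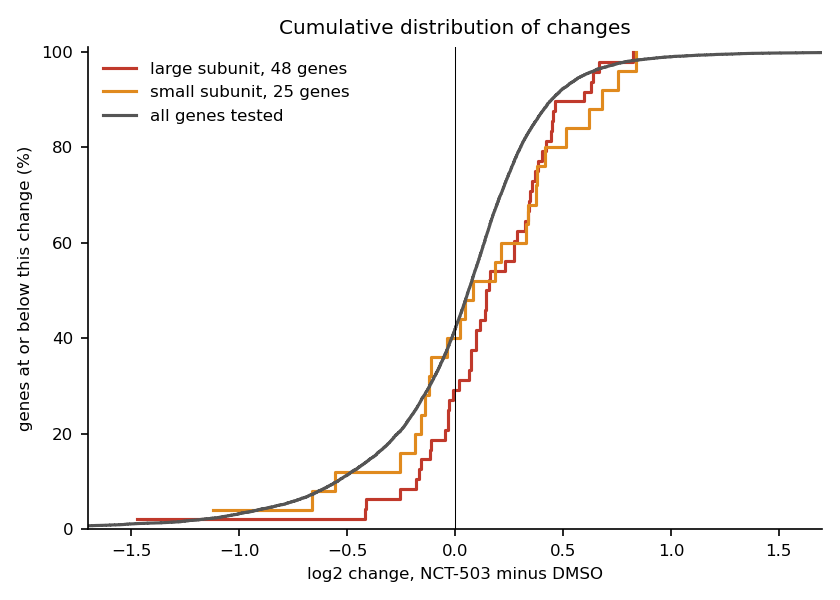
Cumulative share of genes (y axis, %) at or below each log2 change (x axis, NCT-503 minus DMSO) for the 48 large-subunit genes, the 25 small-subunit genes and all 14779 genes tested; changes beyond the axis limits are not drawn. Both member curves lie to the right of the curve of all genes over most of the range above 0, with medians of 0.15 and 0.08 against 0.06; without NCT-503 a or DMSO a the small-subunit median, 0.018 or 0.038, was below that of all genes. Each member curve has a short tail of falls.

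Among large-subunit members, MRPL10 rose most. It encodes the homologue of bacterial L10, the base to which the flexible stalk that recruits translation factors is fixed. MRPL10 stood at 6.58, 6.56 and 6.39 on the NCT-503 arrays, against 5.63, 5.84 and 5.59 on the DMSO arrays. The groups were separated, and the change was 0.82 ± 0.10 (SE, adjusted p = 0.000889), or 1.77-fold. Its neighbour at the stalk base, MRPL11, the homologue of bacterial L11, had 7.60, 7.49 and 7.27 in NCT-503 and 7.33, 7.48 and 7.35 in DMSO, so the groups overlapped (change 0.07, adjusted p = 0.66). MRPL1, of the stalk on the opposite side that guides the leaving tRNA, had a change of -0.16 and no call.

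MRPL58 is a peptidyl-tRNA hydrolase related to release factors that became part of the large subunit and can free stalled ribosomes. Its values were 9.03, 8.98 and 8.74 in NCT-503 and 8.24, 8.27 and 8.25 in DMSO. All NCT-503 arrays were above all DMSO arrays, by 0.67 ± 0.09 (adjusted p = 0.00179). MRPL58 belongs to the central protuberance, the crown of the large subunit, and of 6 members grouped there 2 rose, MRPL58 and MRPL40. The MRPL40 call (adjusted p = 0.017) was lost without NCT-503 a, NCT-503 b, DMSO a or DMSO c (adjusted p from 0.052 to 0.0573). MRPL38, another protein of that crown, lay just outside the threshold (6.34, 6.23 and 5.93 in NCT-503, 5.79, 5.87 and 5.80 in DMSO; change 0.35, adjusted p = 0.0556). Its groups did not overlap, and NCT-503 c was the lowest of the treated arrays. MRPL38 was called higher without that array (adjusted p = 0.00933), with arrays centred or quantile-normalized (from 0.0157 to 0.0318), and with the trend, array-weight and low-level filter settings (from 0.0188 to 0.0367).

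MRPL2, the homologue of bacterial L2 near the peptidyl transferase centre, had 9.35, 9.35 and 9.25 in NCT-503, against 8.70, 8.61 and 8.73 in DMSO. The change was 0.64 ± 0.08 (adjusted p = 0.000861), with no overlap. It was the only 1 with a call of 4 members grouped with that region. MRPL3, the homologue of bacterial L3, had a change of 0.14 (adjusted p = 0.164), MRPL27 of 0.15 and MRPL16 of -0.18.

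MRPL45 lies at the exit of the tunnel through which new proteins leave and links the ribosome to the inner membrane. It had 9.74, 9.62 and 9.59 in NCT-503 and 8.94, 9.07 and 9.05 in DMSO, a separated rise of 0.63 ± 0.08 (adjusted p = 0.00114). MRPL45 has a pseudogene copy, MRPL45P2, and probes may not separate such copies. Of 6 members grouped with the tunnel exit, 3 rose: MRPL45, MRPL22 (1.34-fold) and MRPL24 (1.21-fold). MRPL24 was close to the threshold (adjusted p = 0.0339), and its call was lost without any 1 of the 6 arrays (adjusted p from 0.0515 to 0.104) and with the replicate letter as a block (0.0764). MRPL17, MRPL23 and MRPL47 had changes between -0.01 and 0.16 and no call. The proteins grouped by place in the ribosome were chosen after their values were seen, and a group need not hold every protein of its place. Each group is small, and of all genes tested 16.4% were called higher and 17.1% lower.

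MRPL9, the homologue of bacterial L9, had 8.83, 8.79 and 8.78 in NCT-503 and 8.15, 8.29 and 8.17 in DMSO (0.60 ± 0.08, adjusted p = 0.00108). Its treated arrays were tightly grouped and clear of the DMSO arrays. MRPL54, one of the mitochondria-specific proteins, rose 1.38-fold with 4.88, 4.90 and 4.99 in NCT-503 and 4.51, 4.52 and 4.33 in DMSO (adjusted p = 0.00538). MRPL44, a mitochondria-specific protein related to RNase III that is mutated in an inherited cardiomyopathy, rose 1.37-fold with 8.60, 8.59 and 8.51 in NCT-503 and 8.07, 8.07 and 8.20 in DMSO (adjusted p = 0.00408). In both genes the groups were separated.

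Among small-subunit members MRPS35, a mitochondria-specific protein, rose most of all 73. MRPS35 had 9.72, 9.64 and 9.62 in NCT-503, against 8.84, 8.82 and 8.80 in DMSO. The gap between the groups was far wider than the spread within either, and the change was 0.84 ± 0.07 (SE, adjusted p = 0.000213). MRPS5, the homologue of bacterial S5 at the entry of the messenger RNA channel, had 8.86, 8.95 and 8.96 in NCT-503 and 8.04, 8.20 and 8.26 in DMSO (0.76 ± 0.09, adjusted p = 0.00068). MRPS5 too was separated in every array.

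MRPS22 is a mitochondria-specific protein that is mutated in inherited oxidative phosphorylation deficiency. Its values were 7.47, 7.57 and 7.53 in NCT-503 and 6.91, 6.89 and 6.73 in DMSO, a separated rise of 0.68 ± 0.08 (adjusted p = 0.000931). MRPS30, named for the small subunit but placed in the large, had 9.19, 9.13 and 9.25 in NCT-503 and 8.54, 8.56 and 8.61 in DMSO (0.62 ± 0.07, adjusted p = 0.000817). None of its treated arrays came near the DMSO arrays.

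MRPS18A and MRPS18B are paralogs that descend from one bacterial protein, S18. MRPS18B had 8.18, 8.06 and 7.98 in NCT-503 and 7.57, 7.60 and 7.50 in DMSO, and rose 1.43-fold (adjusted p = 0.00304). MRPS18A had 8.02, 8.10 and 7.89 in NCT-503 and 7.99, 8.10 and 8.03 in DMSO, so its groups overlapped (change -0.03 ± 0.08, adjusted p = 0.782). The difference between the paralogs was not tested.

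MRPS2, the homologue of bacterial S2, was the only member with more than 1 row. The row used rose 1.33-fold (adjusted p = 0.00678), and the other row had 5.18, 5.21 and 4.96 in NCT-503 and 4.64, 4.58 and 4.77 in DMSO, a change of 0.45. Both rows moved the same way. MRPS12, the homologue of the decoding protein S12, had 5.95, 6.04 and 5.62 in NCT-503 and 5.77, 6.01 and 5.70 in DMSO (change 0.04, adjusted p = 0.831). MRPS34, which is mutated in an inherited encephalopathy, had 8.87, 8.63 and 8.57 in NCT-503 and 8.51, 8.67 and 8.63 in DMSO (change 0.08, adjusted p = 0.562). Both overlapped between the groups.

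**Figure D3:**
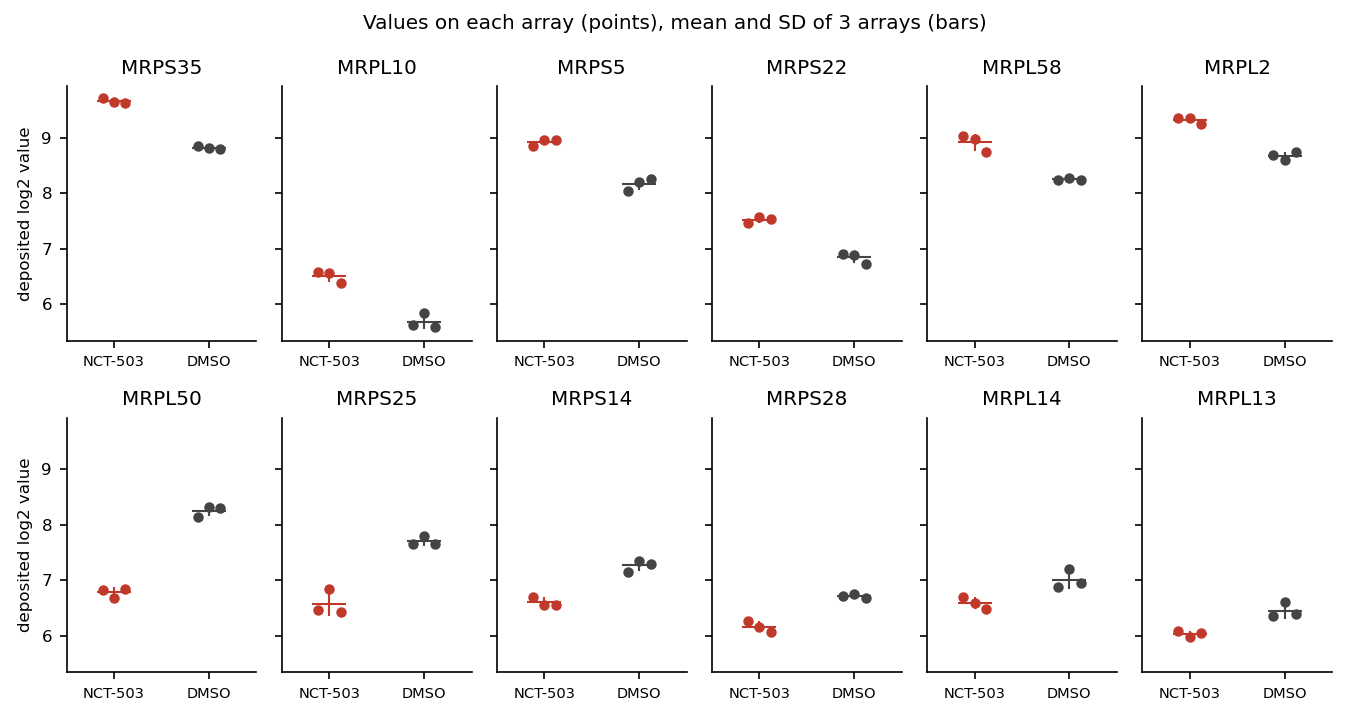
Deposited log2 value on each array for the 6 members with the largest rises (top) and the 6 with the largest falls (bottom), NCT-503 left of DMSO; points are arrays and bars are the mean and SD of 3 arrays. In each of the 12 genes the groups do not overlap, and the gap is widest for MRPL50, with NCT-503 arrays between 6.67 and 6.84 and DMSO arrays between 8.14 and 8.32.

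The falls were fewer, and those of MRPL50 and MRPS25 were deeper than any rise. MRPL50, a mitochondria-specific large-subunit protein, had 6.83, 6.67 and 6.84 in NCT-503, against 8.14, 8.32 and 8.29 in DMSO. The groups stood far apart against their own spread, and the change was -1.47 ± 0.09 (SE, adjusted p = 6.58e-05). MRPS25, a mitochondria-specific small-subunit protein, had 6.47, 6.84 and 6.43 in NCT-503 and 7.65, 7.80 and 7.65 in DMSO (-1.12 ± 0.12, adjusted p = 0.000594). NCT-503 b lay above the other two treated arrays, yet well below the DMSO arrays.

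MRPS14, the homologue of bacterial S14 in the head of the small subunit, had 6.71, 6.55 and 6.56 in NCT-503 and 7.15, 7.35 and 7.30 in DMSO (-0.66 ± 0.09, adjusted p = 0.00143). Of the other proteins grouped with the head here, MRPS9 (1.30-fold) and MRPS10 (1.26-fold) rose and MRPS7 was not called (-0.12). The group need not hold every head protein, and it held members called in both directions. MRPS28 had 6.26, 6.17 and 6.07 in NCT-503 and 6.72, 6.76 and 6.69 in DMSO (-0.56 ± 0.08, adjusted p = 0.00192).

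MRPL14, the homologue of bacterial L14 at the face that meets the small subunit, had 6.70, 6.58 and 6.49 in NCT-503 and 6.88, 7.19 and 6.95 in DMSO (-0.41 ± 0.11, adjusted p = 0.023). MRPL13, the homologue of bacterial L13, had 6.09, 5.99 and 6.05 in NCT-503 and 6.36, 6.62 and 6.39 in DMSO (-0.41 ± 0.09, adjusted p = 0.0131). Both were separated between the groups, but the MRPL14 call was lost without NCT-503 b (adjusted p = 0.0605), NCT-503 c (0.0682) or DMSO b (0.0583).

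Next to the threshold on the inner side stood MRPL14, MRPL24 and MRPL4. MRPL4, the homologue of bacterial L4, rose 1.25-fold (adjusted p = 0.0347), and its call was lost without NCT-503 a, NCT-503 b or any 1 of the DMSO arrays (adjusted p from 0.0671 to 0.0985). On the outer side, with MRPL38, stood MRPL15 (0.23 ± 0.08, adjusted p = 0.0597) and MRPL41 (0.29 ± 0.10, adjusted p = 0.0602). Both were called higher with arrays centred on the median or 75th percentile (adjusted p from 0.0185 to 0.0357) and with dim genes left out (from 0.0166 to 0.0387). MRPL15 was also called with the trend setting (0.0071), and MRPL41 after quantile normalization (0.0225). The other 16 rises beyond the 12 largest ran from 1.21-fold to 1.36-fold.

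By origin, 15 of 42 members with a bacterial homologue rose (35.7%) and 4 fell (9.52%), with a median change of 0.13. Of the 31 mitochondria-specific members 13 rose (41.9%) and 2 fell (6.45%), with a median of 0.21. Among all genes tested 16.4% were called higher and 17.1% lower. Those 2 falls, MRPL50 and MRPS25, were the deepest of all members. Origins were taken from the standard structural names of these proteins, which count MRPS18A and MRPS18B as mitochondria-specific despite their ancestry.

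Neighbouring genes were examined because some of these genes start close to a gene that runs the opposite way. A gene on the opposite strand began within 1000 bases upstream of 20 of the 65 members with a window, and 10 of these partners were tested here. The start of ZNF189, a zinc finger gene, lies 233 bases from that of MRPL50. ZNF189 had 5.40, 4.83 and 4.64 in NCT-503, against 6.01, 6.20 and 6.26 in DMSO (-1.20 ± 0.19, adjusted p = 0.00283), so both genes of this pair fell.

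Other pairs parted. HIRA, a histone chaperone gene whose start is 812 bases from that of MRPL40, had 6.62, 6.49 and 6.36 in NCT-503 and 7.82, 7.85 and 7.89 in DMSO (-1.36 ± 0.09, adjusted p = 7.75e-05), while MRPL40 rose 1.29-fold, a call lost without any 1 of 4 arrays (adjusted p from 0.052 to 0.0573). SKA3, a mitotic gene 106 bases from MRPL57, fell by 0.72, and MRPL57 had a change of 0.07 and no call. FAU, which encodes a cytosolic ribosomal protein and starts 49 bases from MRPL49, rose by 0.56, and MRPL49 had a change of -0.03 and no call. PTCD2, 133 bases from MRPS27, rose by 0.26 (adjusted p = 0.0471), and MRPS27 had a change of -0.16 and no call.

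MRPS11 and MRPL46 form such a pair with each other, 320 bases apart, 1 of each subunit. Their changes were -0.19 and -0.17, neither was called, and in both genes all NCT-503 arrays lay below all DMSO arrays. Of the 10 measured partners, 2 were called higher and 3 lower, against 16.4% and 17.1% of all genes tested. Of 4 called members with a measured partner, 1 partner was called in the same direction, 1 in the opposite direction (HIRA, of MRPL40) and 2 were not called. Across the 10 entries, in which the MRPS11 and MRPL46 pair counts for each gene, the changes of member and partner had a Pearson correlation of 0.31 and a Spearman correlation of 0.01, given as a description of genes measured on the same 6 arrays.

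Of 7 motifs searched on both strands of the 300-base windows, ETS and YY1 had member shares that stood furthest above those of the tested genes. These are counts with no test, and the tested genes and all RefSeq windows include the members. ETS factors, among them GABP, and YY1 are transcription factors known to act at many nuclear genes for mitochondrial proteins. The ETS motif CCGGAAG occurred in 28 of 65 members (43.1%), against 15% of the tested genes with a window and 10.7% of all RefSeq windows. The YY1 motif ATGGCGG occurred in 23 members (35.4%), against 7.93% and 5.72%. Only 5 members had a YY1 match before the gene's start, whereas 22 had an ETS match there. Matches before the start were not counted separately in the other genes. The GC box GGGCGG occurred in 40 members (61.5%), against 60.5% and 44.6%.

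The other four motifs were each found in few members. The NRF1 motif GCATGCGC occurred in 5 members (7.69%), against 4.56% of tested genes and 3.27% of all windows. The E-box CACGTG occurred in 5 members (7.69%), against 9.03% and 7.43%. The CREB/ATF motif TGACGTCA occurred in 0 members, against 2.62% and 1.98%, and the C/EBP-ATF composite TGATGNAA, where N is any base, in 1 member (1.54%), against 2.23% and 3.67%. Absence of these letters says only that they are not in this window. The motifs searched do not contain one another, and the median GC content of the windows was 60.3% in members and 63.3% in tested genes.

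Within the members, the ETS motif occurred in 8 of 25 called higher, 0 of 4 called lower and 20 of 36 not called. The YY1 motif occurred in 12 of 25 called higher, 2 of 4 called lower and 9 of 36 not called. These splits are counts and were not tested. Of 24 YY1 matches in members 19 reached past the gene's start, whereas 29 of 38 ETS matches lay before it. The letters ATGGCGG also spell a translation start codon followed by an alanine codon, so a match past the start may be coding sequence.

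The stretches of 30 bases below show the YY1 match (capitals) past the start in those of the 12 largest rises and 6 falls that have one, to let the members be compared. Other called members with such a match, among them MRPL22, MRPS9 and MRPS10, are not shown.
MRPS35, chr12:27710833-27710862, plus strand: tcctcgcagccATGGCGGccgccgcgctcc
MRPL58, chr17:75012676-75012705, plus strand: aagacctgagcATGGCGGccaccaggtgcc
MRPS30, chr5:44808952-44808981, plus strand: cgcgggcaaagATGGCGGcggccaggtgtt
MRPL9, chr1:151763461-151763490, minus strand: tgcctgtgaacATGGCGGcgcccgttgtca
MRPS18B, chr6:30617855-30617884, plus strand: cgtacgtcaagATGGCGGcgtctgtattaa
MRPL50, chr9:101398574-101398603, minus strand: tctcatcgaagATGGCGGcgcgatctgtgt
MRPS14, chr1:175023390-175023419, minus strand: tagcggacaacATGGCGGccttcatgctgg

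Among these 7 the match began between 12 and 26 bases after the start, in 5 members that rose and in 2, MRPL50 and MRPS14, that fell. These 7 were taken from the members with the largest changes, and any relation of the match to the direction of change was not tested.

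**Figure D4:**
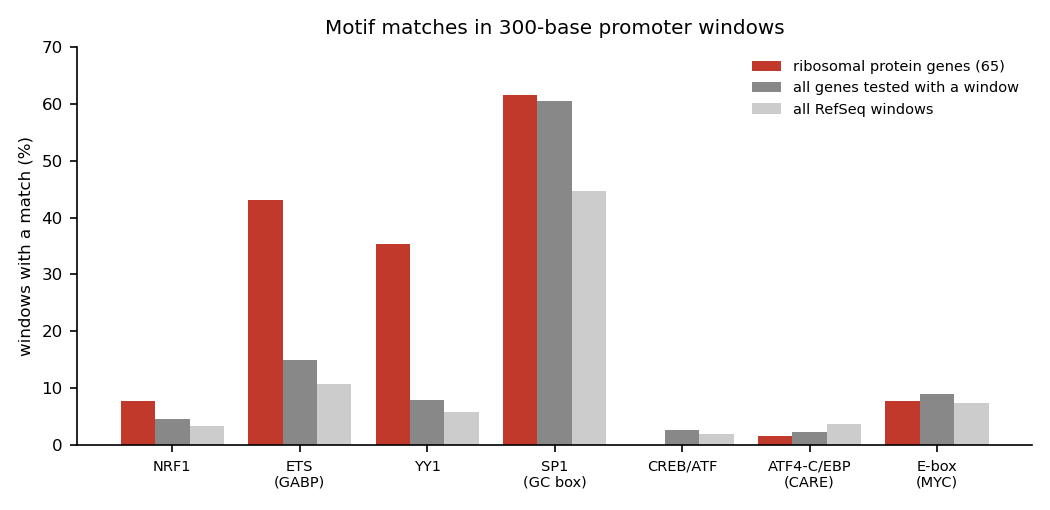
Share of 300-base promoter windows (y axis, %, from 0) with at least 1 match to each of 7 motifs (x axis), for the 65 mitochondrial ribosomal protein genes with a window, the tested genes with a window and all RefSeq windows. The ETS and YY1 bars of the members, 43.1% and 35.4%, stand above those of tested genes, 15% and 7.93%. Of 24 YY1 matches in members, 19 reached past the gene's start and may be coding sequence.

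The other genes of mitochondrial translation, listed by role, did not move as one. For the counts below, 16.4% of all genes tested were called higher and 17.1% lower. Within the members' range of mean value these shares were 22.1% and 26.1%. Translation factors act with the ribosome, and 4 of 9 measured rose and 2 fell (median 0.05). The initiation factors MTIF2 and MTIF3 rose 1.62-fold and 1.39-fold, and MRRF, which recycles the ribosome after termination, rose 1.62-fold. MTFMT, which formylates the initiator methionyl-tRNA, fell by 0.73, and MTRFR, a rescue factor for stalled ribosomes, fell by 1.08. The fourth rise was that of GUF1, an elongation factor homologue (0.30).

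Assembly factors and ribosomal RNA modification enzymes build the ribosome, and 3 of 23 measured rose (13%) and 9 fell (39.1%), with a median of -0.18. The methyltransferases MRM2, MRM1 and MRM3, which modify the large ribosomal RNA, fell by 1.19 ± 0.08 (SE, adjusted p = 7.5e-05), 0.84 ± 0.08 and 0.65 ± 0.12. MRM2 had means of 6.47 ± 0.07 in NCT-503 and 7.66 ± 0.03 in DMSO (SD, n = 3 each; limma). The GTPase MTG2 fell by 0.78 and the helicase DDX28 by 0.72, both of which act in large-subunit assembly. The rises were those of NOA1 (0.53), METTL17 (0.47) and RPUSD3 (0.27).

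The proteins of this ribosome that carry other symbols were not called. DAP3 had a change of 0.11, CHCHD1 of -0.08 and PTCD3 of -0.12, and these 3 were the measured ones of 7 listed symbols. Of 11 measured genes of mitochondrial DNA transcription and RNA stability, 1 rose, HSD17B10 (0.30), and 5 fell, MTERF2 most (-0.99), then TRMT10C (-0.50), MTERF1 (-0.45), PNPT1 (-0.28) and PRORP (-0.27). POLRMT, the mitochondrial RNA polymerase, had a change of 0.24 and no call (adjusted p = 0.0676).

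Of the mitochondrial aminoacyl-tRNA synthetase list, GARS1 (1.89-fold), KARS1 (1.55-fold) and QRSL1 (1.25-fold) rose and GATB was not called. These 4 were the only measured ones of 24 listed, so the list as a whole was not described. GARS1 and KARS1 also charge tRNAs in the cytosol, and QRSL1 and GATB encode subunits of the enzyme that completes glutaminyl-tRNA. Protein import genes, which bring proteins made in the cytosol into mitochondria, were split with 7 rises and 7 falls among 22 (31.8% each). The inner membrane import genes TIMM22 and TIMM23 fell by 0.64 and 0.56, TOMM5 of the outer membrane fell by 0.52, and PMPCA, of the presequence peptidase, fell by 0.48. Named after their values were seen, the largest rises were those of TOMM20, a receptor of the outer membrane (0.46), and TIMM44 of the inner membrane (0.42).

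Mitochondrial chaperones and proteases had 3 rises among 9, the protease HTRA2 (1.47-fold), the protease subunit CLPX (1.41-fold) and the chaperone HSPA9 (1.19-fold). Among regulators of mitochondrial biogenesis, NRF1 fell by 0.45 ± 0.09 (adjusted p = 0.00617). ESRRA (0.07), MYC (0.24) and YY1 (-0.21) were not called, and these 4 were the measured ones of 12 listed.

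**Figure D5:**
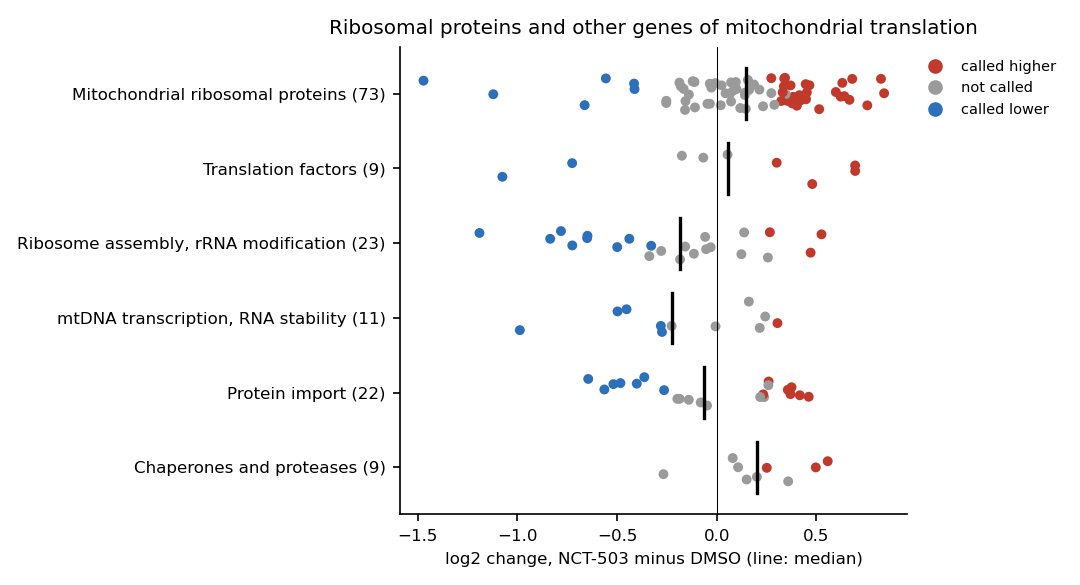
Log2 change (x axis, NCT-503 minus DMSO) of each measured gene in 6 groups of mitochondrial translation and protein handling, coloured by call, with a line at the group's median; vertical position within a group carries no value. The ribosomal proteins have a median of 0.15, and the assembly and RNA modification genes one of -0.18 with 9 falls among 23 (39.1%, against 17.1% of all genes tested).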

How the data were processed

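The authors deposited 1 processed log2 value per array row and sample, and the submitters' processing notes name Partek as the tool; how it corrected background, summarised probes and normalized arrays is not given in the sources used. The log2 scale was inferred from the values, and arrays carry no read depth, so their number limits the precision. The platform annotation named 14779 genes. All were fitted together in limma 3.58.1 (R 4.3.3), with group as the only term, eBayes moderation without a trend, and two-sided tests. Members were read out of that fit. Members and lists were chosen with earlier results of these data known, so lists are described by counts and medians, without a test. Named members are the 12 largest rises, all falls, a fixed set of members with known roles, and the 3 on either side of the threshold. Members named beyond that, and the groups by place in the ribosome, were chosen after their values were seen. Same-letter arrays deviated together with correlations of 0.004, 0.003 and 0.037, so the letters were not taken to pair samples. The fit was tested on simulated data with the real means and spreads of 14779 genes, 200 of them changed. It recovered 34.3%, 82.1% and 100% of log2 changes of 0.5, 1 and 2, with 9 of 153 calls false. The real fit called 4953 genes, so its adjusted p threshold admits smaller changes than in the simulation. The simulated shares therefore do not give the recovery or false calls of the real fit. Promoter windows are RefSeq's, of GRCh38.p14, matched by gene identifier.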

Additional observations from a re-analysis of the deposited data

How the results depend on the processing

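The 34 calls were recomputed under 18 alternatives fixed with the design, and no called member changed sign in any. All 34 were kept with eBayes trend or robust settings, array weights, arrays centred on the median or 75th percentile, quantile normalization, genes below the 25th percentile of mean level left out, and a gene's rows averaged. With genes below the 50th percentile left out, 33 were kept and MRPL54 was not tested. With the replicate block, 26 members were called higher and 6 lower, and MRPL24 (adjusted p = 0.0764) and MRPS23 lost their calls. With every row tested, MRPL24 and MRPL4 lost theirs. At an adjusted p under 0.01, 23 calls remained, with 11 rises and 1 fall in the large subunit. Leaving out 1 array kept 28 to 31 of the 34 calls. The MRPS23 call was lost without any 1 array except NCT-503 c, and the MRPL30 call without NCT-503 b, NCT-503 c, DMSO a or DMSO c. Calls were also gained. MRPL15, MRPL38, MRPL41 and MRPS26 became called higher with either centring, which brought the higher calls to 32. After quantile normalization MRPL38, MRPL41, MRPL43 and MRPS26 were new higher calls and MRPS21 a new lower one. With genes below the 25th percentile left out MRPL15, MRPL38 and MRPL41 were new, and below the 50th also MRPS26 and MRPS31, with MRPS11 lower. The trend setting added MRPL3, MRPL15 and MRPL38 as higher and MRPS21 as lower, and MRPL38 was also new with array weights and without NCT-503 c. The median change of members was 0.188 with arrays centred on the median, 0.214 with the 75th percentile and 0.207 after quantile normalization; that of the large subunit was 0.22 with the 75th percentile and 0.214 after quantile normalization. That of the small subunit was 0.126, 0.152 and 0.144 under these 3 settings, and those of all genes 0.105, 0.132 and 0.044. Leaving out 1 array gave from 0.018 to 0.143 for the small subunit and from 0.14 to 0.207 for the large. MRPS18A, without a call, changed sign after centring on medians (0.008) or 75th percentiles (0.034). Leaving out 1 array also turned the sign of uncalled members, whose changes then ran from -0.081 to 0.021 for MRPS18A (above 0 without NCT-503 c), from -0.007 to 0.158 for MRPL11 and from -0.004 to 0.142 for MRPS34 (both below 0 without NCT-503 a), and from -0.042 to 0.168 for MRPS12 (below 0 without NCT-503 b or DMSO c). The cause was not tested. Background signal was not used here, so folds of dim rows may be understated.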

Other observations

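4 symbols of the MRPL form were left out of the members as pseudogene or antisense genes, and 2 of them moved further than most members. MRPL42P5, a pseudogene copy of MRPL42, had values of 3.27, 2.93 and 3.52 in NCT-503, against 4.99, 5.47 and 5.33 in DMSO. Its change was -2.03 ± 0.18 (SE, limma, adjusted p = 0.000244), whereas MRPL42 itself had a change of -0.11 and no call. MRPL20-AS1, the antisense partner of MRPL20, had 4.33, 4.31 and 4.40 in NCT-503, against 5.35, 5.52 and 5.41 in DMSO. It fell by 1.08 ± 0.08 (limma, adjusted p = 0.000123), and MRPL20 had a change of -0.11 and no call. In both of these genes the groups did not overlap.

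MRPL45P2, a pseudogene copy of MRPL45, had a change of -0.18 (limma, adjusted p = 0.122), while MRPL45 rose. MRPL23-AS1 had a change of 0.11 and MRPL23 one of 0.16, and neither was called. The difference between each gene and its copy or antisense partner was not tested.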
